A study of Mus musculus with 6 samples.

Results

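The 47 genes described here code for the actin cytoskeleton of contractile cells and for the factors that control it: smooth muscle and myofibroblast contractile proteins, proteins of focal adhesions and actin crosslinks, and serum response factor (SRF) with its cofactors. They were taken by gene symbol from a list, and all 47 were found among the 19078 genes of the study's expression table. *Mrtfa* and *Mrtfb* stand in that table under their older symbols *Mkl1* and *Mkl2*, which are used below.

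Immortalized mouse fibroblasts (MF) were sequenced in 6 poly(A) libraries: *Ms4a15* OE cells gave 3 of them and control cells the other 3. MF cells are male embryonic fibroblasts with a conditional *Gpx4* deletion and Cre-ERt2, which both groups carry. In *Ms4a15* OE cells, the endogenous *Ms4a15* gene was activated by a CRISPR activation system with a guide delivered by lentivirus, as a selected pool rather than a clone. The control cells are labelled wild type, and the methods of the study describe them as infected with empty lentivirus. No label says whether the libraries of a group came from separate cultures, and no age or treatment is given for the cells.

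Actin monomers assemble into filaments that myosin II pulls on, tropomyosins and calponins coat, and alpha-actinins and filamins tie together. Filaments end at focal adhesions, where talin and vinculin link them to integrins. SRF is a transcription factor that binds the CArG box. Its cofactors Mkl1 and Mkl2 are held in the cytoplasm by free actin monomers and move to the nucleus when these are used up by filament assembly, so that actin, vinculin and *Srf* itself are classical targets. Myocardin (*Myocd*) is the cofactor of smooth and heart muscle.

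The CArG box is the sequence through which SRF acts, so the boxes found before the starts of these genes are shown first. A CArG box is CC, then 6 bases that are A or T, then GG, and the pattern reads the same on both strands. It was searched in RefSeq promoter windows of GRCm38.p6 (mm10), which hold 250 bases before and 50 bases after each annotated start. The following stretches show 1 box each in capitals with 20 bases on either side, 5′ to 3′ on the strand of the gene.
*Actg1*, chr11:120348556-120348605, minus strand: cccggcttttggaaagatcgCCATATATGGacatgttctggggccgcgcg
*Srf*, farther box, chr17:46556215-46556264, minus strand: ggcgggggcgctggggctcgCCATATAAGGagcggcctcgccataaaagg
*Srf*, nearer box, chr17:46556195-46556244, minus strand: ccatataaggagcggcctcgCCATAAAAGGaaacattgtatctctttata
*Vcl*, chr14:20929151-20929200, plus strand: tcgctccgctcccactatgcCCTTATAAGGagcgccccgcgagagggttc
*Cnn2*, chr10:79988524-79988573, plus strand: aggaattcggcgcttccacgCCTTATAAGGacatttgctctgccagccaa
*Filip1l*, chr16:57549160-57549209, plus strand: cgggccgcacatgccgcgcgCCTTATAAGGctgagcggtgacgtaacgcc
*Myl6*, chr10:128493030-128493079, minus strand: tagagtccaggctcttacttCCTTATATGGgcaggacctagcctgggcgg
*Fhl2*, nearer box, chr1:43163963-43164012, minus strand: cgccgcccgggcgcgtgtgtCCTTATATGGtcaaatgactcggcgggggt
*Myl9*, chr2:156775283-156775332, plus strand: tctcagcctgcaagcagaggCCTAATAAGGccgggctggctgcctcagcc
*Fhl1*, chrX:56779561-56779610, plus strand: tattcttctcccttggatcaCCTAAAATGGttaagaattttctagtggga

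A window was found for 40 of the 47 genes, and 9 of these 40 (22.5%) had at least 1 box. Of all 27025 genes with a window, 488 (1.81%) had one. Among the genes of the table with a window, 205 of 12633 (1.62%) did. Many of the 47 genes were listed because they are known as SRF targets, so the higher share is a description of the list and no independent evidence. *Srf* and *Fhl2*, a LIM protein that binds SRF, held 2 boxes each. In the GENCODE annotation, the stretches shown for *Actg1*, *Vcl*, *Cnn2* and *Myl9* lie outside any gene and overlap no exon. Those of *Fhl1*, *Fhl2*, *Filip1l* and *Myl6* lie between exons of their own gene, before starts that are not the outermost ones, and that of *Filip1l* also lies in *Cmss1*. Those of *Srf* lie before the gene and inside the annotated gene *Gm26904*, in no exon. The second box of *Fhl2*, CCAAAAAAGG, lies 86 bases before another RefSeq start. In GENCODE its stretch overlaps an exon of *Fhl2* itself and lies after the outermost start of the gene.

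All 11 boxes lay before the RefSeq start of their window, with 21 to 217 bases between the box and that start and a median of 72. *Fhl2* had the nearest box and *Vcl* the farthest. The 11 boxes took 8 forms. The form CCTTATAAGG occurred in *Cnn2*, *Filip1l* and *Vcl*. By role, boxes were found in 1 actin, 1 gene of the calponin family, 2 myosin light chains, 2 genes of crosslinks and adhesions, 2 LIM proteins and *Srf*. None of the 7 tropomyosin and thin filament genes had a box in its window, nor had *Vim* or *Des*, which says only that these letters are not in those windows. *Actb*, *Actg2*, *Tagln*, *Myh11*, *Csrp2*, *Myocd* and *Nexn* had no window.

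**Figure D1:**
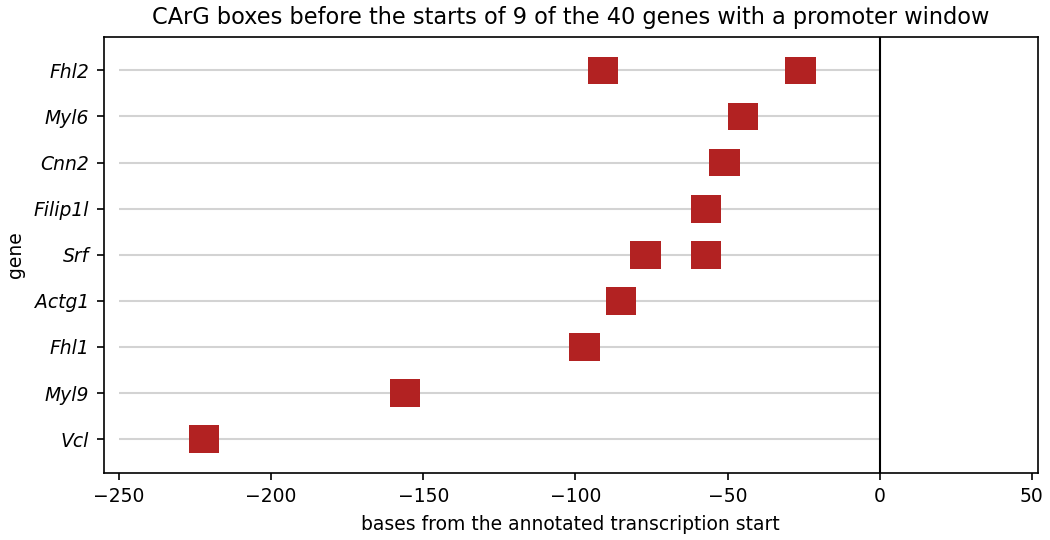
Position of each CArG box in the promoter windows of the 9 genes that had one, in bases from the annotated transcription start at 0. Each red block is 1 box of 10 bases and the grey line is the part of the window before the start. All 11 boxes lay 21 to 217 bases before a RefSeq start. *Fhl2* and *Srf* had 2 boxes each, those of *Fhl2* before different starts.

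For each gene the table gives 1 value that does not come from the authors' own comparison: the mean over all 6 libraries of read counts divided by library size factors, termed the mean normalised read count below. Values of the groups were not used here, and reads of single libraries could be recovered only for the lowest genes, in libraries whose group is not known, so the mean has no error between replicates and no difference between *Ms4a15* OE and control can be read from it. The means of all genes sum to 40991755 normalised reads, the average depth of a library on this scale. The relative depth of the libraries could be read from genes with a single read in 1 library, and the size factors ran from 0.887 to 1.14. To compare genes, the mean was divided by the length of the gene's joined exons in GENCODE and is given per kilobase. *Ms4a15* itself had a mean of 638, which checks no label because both groups enter it.

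The labelled cell type was checked first. Collagen I and fibronectin, defining matrix products of fibroblasts, had means of 66981 (*Col1a1*), 135155 (*Col1a2*) and 114243 (*Fn1*). Of the 12 fibroblast markers in the table, 9 had means of at least 1000, as had 6684 of all 19078 genes. *Pdgfrb* and *Thy1* had means of 2150 and 1092. *Pdgfra*, on the same list, had a mean of 278, or 31.7 per kilobase, above only 37.2% of all genes. *Dcn* and *Lum*, proteoglycans of many fibroblasts, were nearly absent at 12.1 and 0.675. The 7 epithelial markers ran from 0.176 to 170, the 4 endothelial markers from 1.36 to 107 and the 3 leukocyte markers from 3.73 to 164. *Epcam*, a defining epithelial marker, had a mean of 0.176, *Pecam1* of endothelium 15.9 and *Ptprc* of leukocytes 11.1. The highest genes of these lists were *Krt14* (170, epithelial), *Cdh5* (107, endothelial) and *Cd68* (164, leukocyte). The part of such cells in the levels below was not tested.

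**Figure D2:**
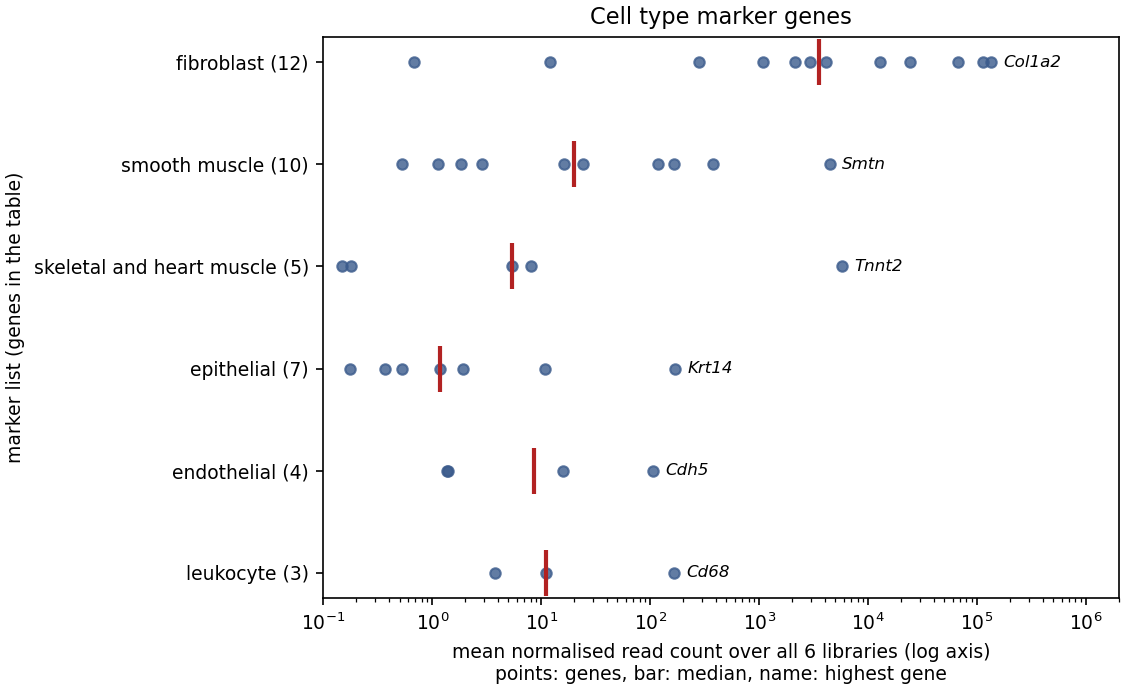
Mean normalised read count over all 6 libraries (log axis) of the marker genes of 6 cell types. Points are genes, the red bar is the median of the list, and the highest gene is named. The fibroblast median was 3509 and the smooth muscle median 20.2.

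The contractile and SRF genes spanned more than 5 orders of magnitude in level per kilobase, from *Cnn1* at 0.210 to *Actb* at 80486. The median of the 47 genes was 1070 per kilobase, against 156 for the 16214 genes with a length. The median gene of the list stood above 82.6% of these genes. Of the 47 genes, 36 lay in the upper part of all genes, above the median, and 14 were at or above the 95th percentile. The other 11 lay below the median, and 6 of them were below the 25th percentile. All 47 genes together took 1.89% of all normalised reads. These 6 were *Synpo2*, *Lmod1*, *Myh11*, *Fhl1*, *Myocd* and *Cnn1*, and all but *Fhl1* were also on the list of smooth muscle markers.

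**Figure D3:**
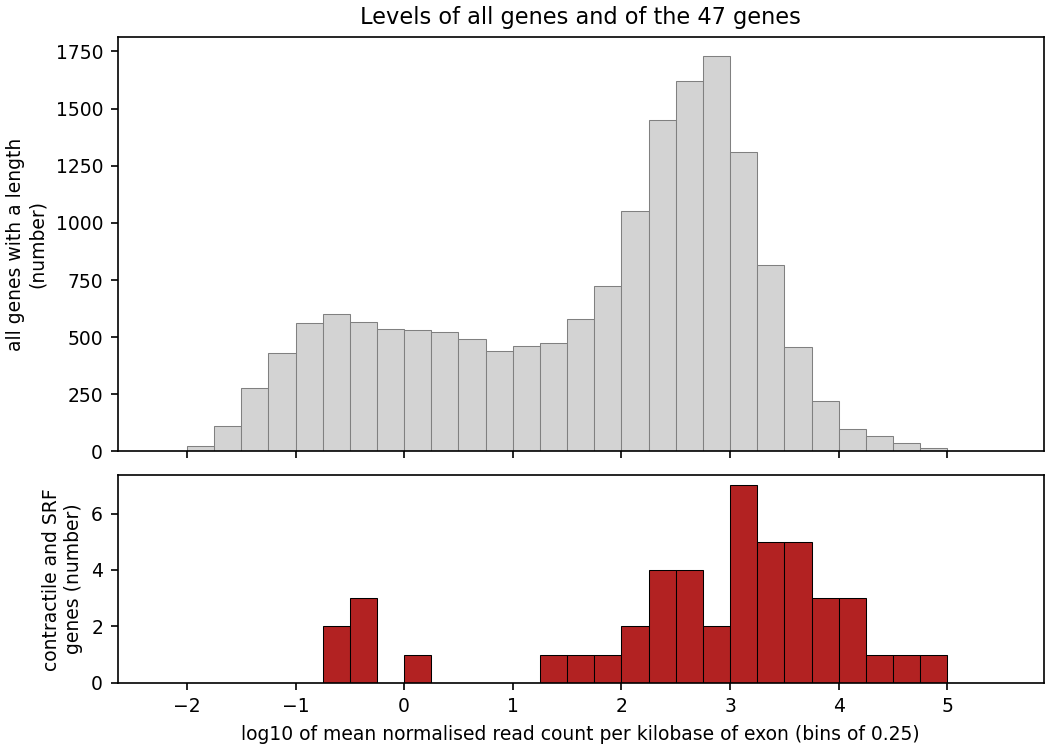
Number of genes in bins of 0.25 of the log10 of the mean normalised read count per kilobase of exon, for the 16214 genes with a length (top) and for the 47 contractile and SRF genes (bottom). The 47 genes had a median of 1070 per kilobase and all genes one of 156, and 5 of the 47 lay under 0.5 per kilobase.

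The actins came almost wholly from the cytoplasmic genes. *Actb*, beta-actin (chr5:142903115-142906754, minus strand), had a mean of 154532 normalised reads, and ranked 7 among all genes by level per kilobase. *Actg1*, gamma-actin of the cytoplasm, had a mean of 59854 and 30663 per kilobase. On that scale they made up 72.2% and 27.5% of the summed level of the actins listed. *Acta2*, smooth muscle alpha-actin and the usual marker of myofibroblasts (chr19:34241090-34255590, minus strand), had a mean of 380, or 187 per kilobase, which is 431 times below *Actb* and close to the median of all genes. *Actg2*, the gamma-actin of smooth muscle, stood at 165 normalised reads and 121 per kilobase. Skeletal actin, *Acta1*, had a mean of 5.41. The 2 cytoplasmic actins together carried more than 99% of the level.

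The calponin family showed the same ordering. Transgelin-2 (*Tagln2*) reached 13600 per kilobase and 99.3% of the transgelins, while *Tagln*, the smooth muscle transgelin also known as SM22, had a mean of 160 reads and 101 per kilobase. Of the calponins, which bind actin filaments, *Cnn3* stood at 6116 and *Cnn2* at 3110 per kilobase, 66.3% and 33.7% of the family. *Cnn1*, the calponin of differentiated smooth muscle, was the lowest of the 47 genes with a mean of 0.529. That mean decodes to 1 read in each of 3 libraries and 0 in the other three.

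Nonmuscle myosin II carried the motor genes. *Myh9*, heavy chain of nonmuscle myosin IIA, had a mean of 32494 and 4372 per kilobase, and *Myh10* of myosin IIB one of 10386 and 1201 per kilobase. They made up 78.4% and 21.6% of the heavy chains. *Myh11*, the smooth muscle heavy chain, had a mean of 2.88. Among light chains, the essential chain *Myl6* stood at 9929 per kilobase and the regulatory chain *Myl9* at 23.6, a mean of 26.7 reads. *Myl12a*, a nonmuscle regulatory chain under the older symbol *2900073G15Rik*, which is not among the 47 genes, stood at 7960 per kilobase. Its relative *Myl12b*, also outside the list, had a mean of 1000 and no length. Reads shared between these relatives were not examined. *Mylk*, the kinase that phosphorylates regulatory light chains, had a mean of 656, or 81.1 per kilobase, below the median of all genes.

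All 4 tropomyosin genes were well above that median. *Tpm4* was the highest at 14688 per kilobase and 54.2% of the family, followed by *Tpm3* at 6330 and *Tpm1* at 5072. *Tpm2* was the lowest at 1035 per kilobase and 3.81% of the family. *Cald1*, caldesmon, which binds actin and myosin, stood at 5470. *Smtn*, smoothelin, first known from smooth muscle, had a mean of 4442 normalised reads and 1140 per kilobase, the 1 gene of the smooth muscle marker list above a mean of 1000. *Lmod1*, leiomodin of smooth muscle, which nucleates actin filaments, had a mean of 1.83.

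**Figure D4:**
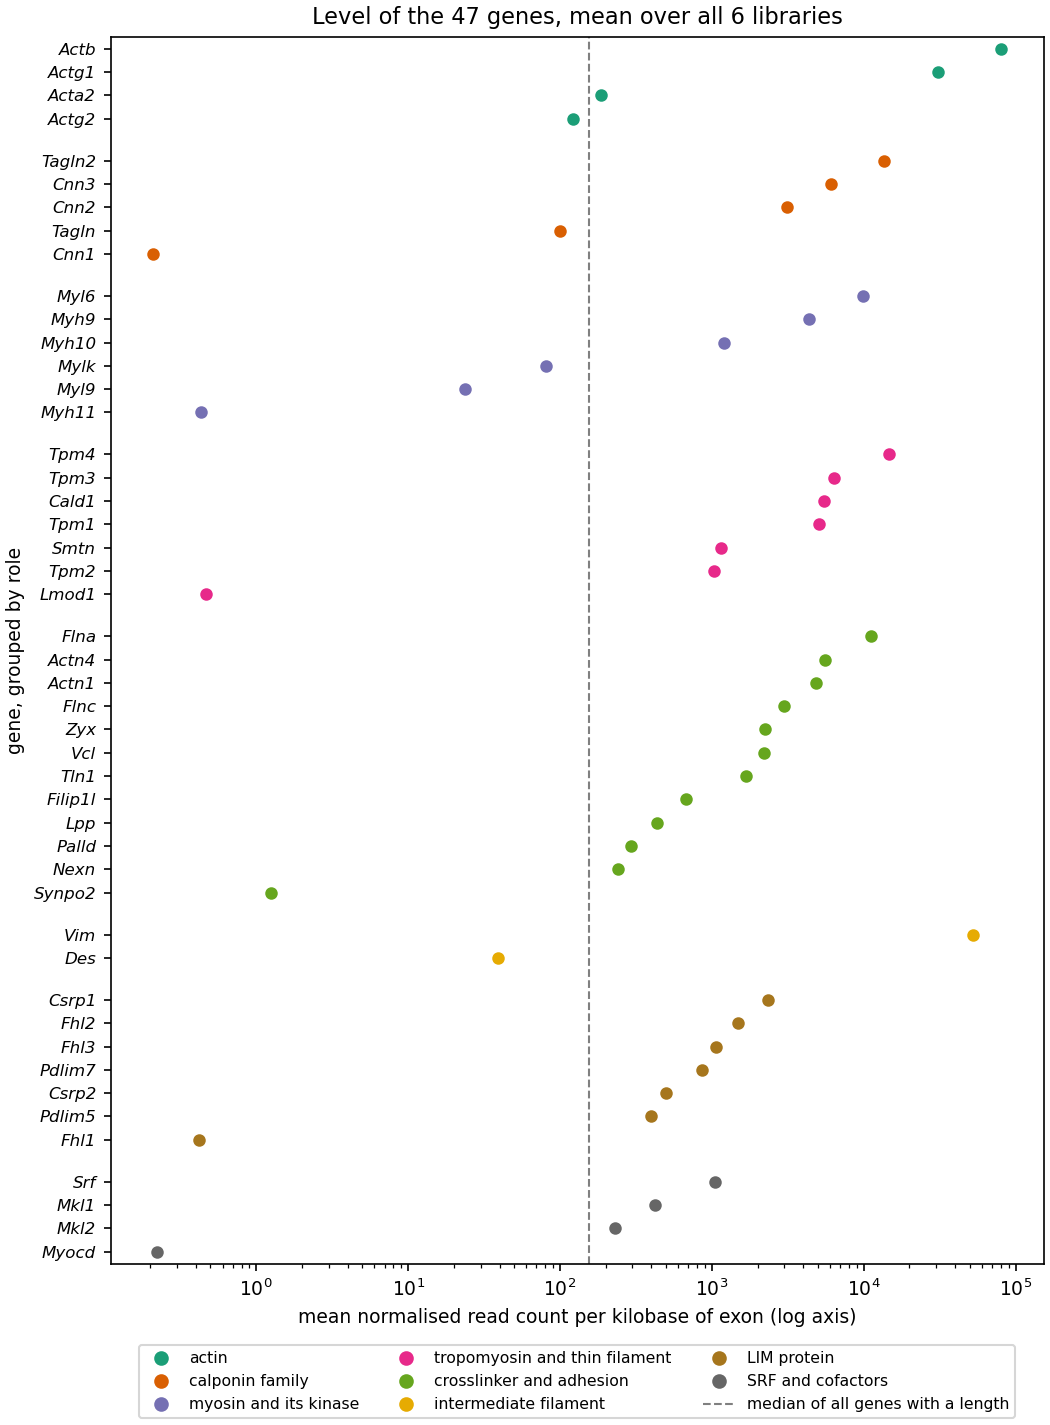
Mean normalised read count per kilobase of exon (log axis) of the 47 genes, grouped by role and ordered by level in each group. Each point is the authors' mean over all 6 libraries, with no error available, and the dashed line is the median of all genes with a length, 156. Each of the 8 role groups had at least 1 gene below that line and at least 1 above 1000 per kilobase.

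Of the 12 genes of crosslinks and focal adhesions, 11 stood above the median of all genes. *Flna*, filamin A, which ties crossing filaments together, had a mean of 94573, the 18th highest of all genes before division by length, and 11147 per kilobase. Its relative *Flnc*, known from striated muscle, still reached 2986 per kilobase, 21.1% of the filamins listed. The alpha-actinins were nearly even, with 5528 per kilobase for *Actn4* and 4872 for *Actn1*, a ratio of 1.13. The focal adhesion genes *Zyx* (zyxin), *Vcl* (vinculin) and *Tln1* (talin) stood at 2224, 2213 and 1665 per kilobase. *Filip1l* (671), *Lpp*, a LIM protein related to zyxin (434), *Palld*, palladin of stress fibres (294), and *Nexn*, nexilin (242), followed, the last of them above 56.1% of all genes. *Synpo2*, an actin-binding protein of muscle, had a mean of 16.1, or 1.24 per kilobase.

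Intermediate filaments were those of mesenchymal cells. *Vim*, vimentin, had a mean of 115135 and 52501 per kilobase, the 21st highest level of all genes. *Des*, desmin of muscle, had a mean of 119 and 39.2 per kilobase, 1340 times below *Vim*.

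Of the 7 LIM proteins, 6 stood above the median of all genes and *Fhl1* near the counting limit. *Csrp1*, which binds alpha-actinin and zyxin, stood at 2329 per kilobase and *Csrp2* at 500. *Fhl2* and *Fhl3*, built of LIM domains only, stood at 1482 and 1070 per kilobase, 58.1% and 41.9% of their family, and *Fhl1*, their relative of skeletal muscle, at a mean of 1.26. *Pdlim7* and *Pdlim5*, adaptors of actin filaments, stood at 859 and 398 per kilobase. This order turns with no division by length, where *Pdlim7* took 48.0% of the sum.

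*Srf* itself (chr17:46548329-46556175, minus strand) had a mean of 2746 normalised reads and 1050 per kilobase, above 82.3% of all genes. Its cofactors stood lower, at 420 per kilobase for *Mkl1* and 229 for *Mkl2*, 64.7% and 35.2% of the cofactors listed. By the means with no division by length they were nearly even and in the other order, with 1988 for *Mkl1* and 2059 for *Mkl2*. *Myocd* had a mean of 1.14. It made up 0.0342% of the summed level of the cofactors per kilobase.

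**Figure D5:**
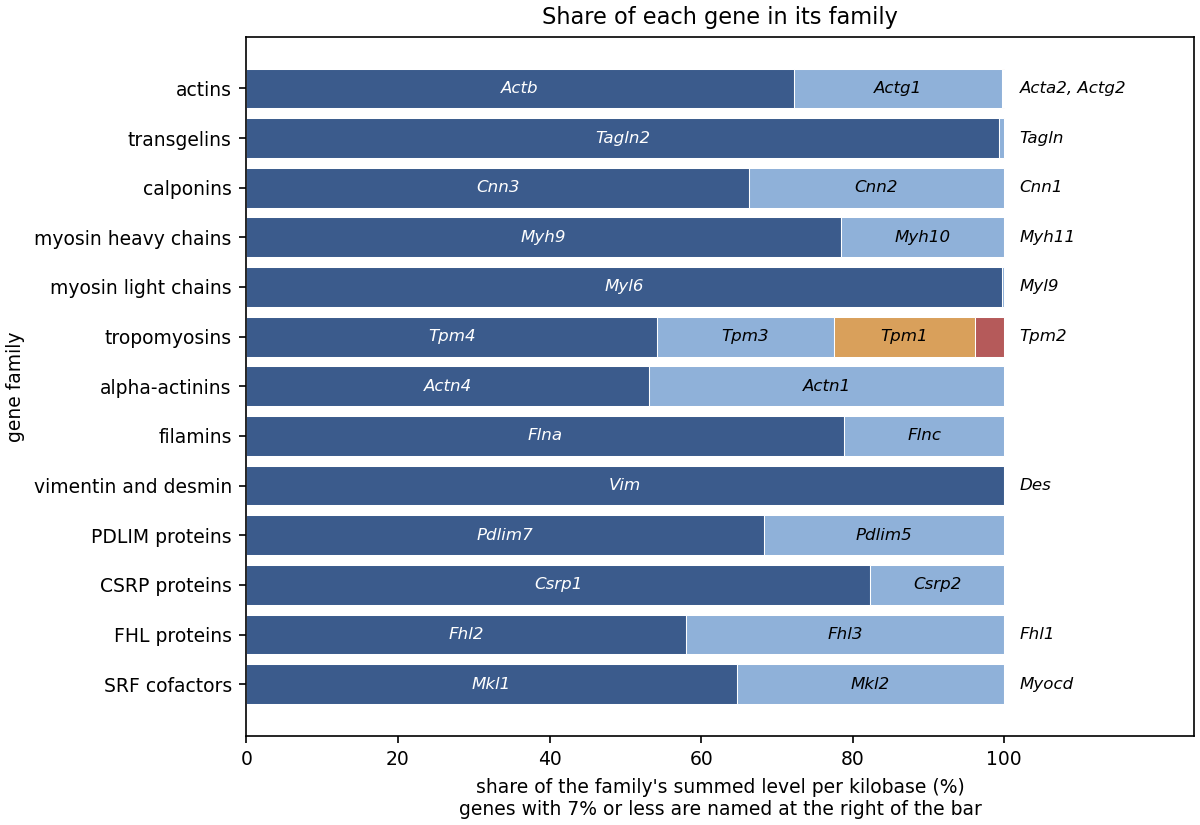
Share of each gene in the summed level per kilobase of its family (bars sum to 100%), for 13 families that hold 34 of the 47 genes. Genes with 7% or less are named at the right. *Tagln2*, *Myl6* and *Vim* each took over 99% of the genes listed for their families, while *Actn4* and *Actn1* took 53.2% and 46.8%. *Myl6* is an essential and *Myl9* a regulatory light chain. The regulatory chains *Myl12a*, at 7960 per kilobase, and *Myl12b*, with no length, are not in that sum.

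Whole reads could be recovered for the 5 of the 47 genes with means under 3. This is because a mean is a sum of reads, each worth a fixed step of its library. The 6 steps ran from 0.147 to 0.188, and all 3097 genes with a mean under 1 were decoded to a single set of reads. *Cnn1* had 3 reads over all 6 libraries (exact 95% Poisson interval 0.619 to 8.77). *Myocd* had 7 reads (2.81 to 14.4), as 3, 2 and 2 in 3 libraries and 0 in the others. *Fhl1* had 8 reads in 4 libraries (3.45 to 15.8), with 3, 2, 2 and 1 reads. *Lmod1* had 11 reads in 5 libraries (5.49 to 19.7), at most 4 in a library. *Myh11* had 17 reads in 5 libraries (9.90 to 27.2), of which 8 came from a single library. These libraries were not assigned to groups. The intervals cover counting error only. *Fhl1* had a CArG box before 1 of its starts and a level at the counting limit.

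Related genes can share reads where their sequences are identical. The coding sequences of *Actb* and *Actg1* were 88.6% identical over 1125 aligned bases, with a longest identical run of 62 bases, and *Actb* and *Acta2* were 83.3% identical with a run of 47. Coding sequences were compared only within the 13 families, which hold 34 of the 47 genes. Other genes and untranslated parts were not compared. Among these 34 genes the longest run was 122 bases, between *Myh9* and *Myh10*, which were 74.4% identical. *Myh11* shared runs of 65 bases with each of them. None of the runs of coding sequence compared reached the 150 bases that the labels give for a read. The methods of the study give a shorter read, which is under the longest run of *Myh9* and *Myh10* but above the runs that *Acta2*, *Actg2* and *Myh11* share with their relatives. Transgelins (70.0% identical, run of 15), calponins (runs of 20 to 23) and the myosin light chains (run of 9) shared less.

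Genes with and without a box were then compared in level, as a description with no test. The 9 genes with a CArG box ran from 0.418 (*Fhl1*) to 30663 per kilobase (*Actg1*), with a median of 1482. The 31 genes with a window but no box ran from 0.210 (*Cnn1*) to 52501 (*Vim*), with a median of 1201. The ranges of both sets overlapped almost wholly. *Myl9* had a box and 23.6 per kilobase, and *Tpm4* had none in its window and 14688.

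Other genes of the same pathway gave a like picture of levels. Of 51 further actin and SRF pathway genes, 47 were in the table, 38 of them with means of at least 1000 and 5 under 100. Of all 19078 genes, 6684 had means of at least 1000 and 10440 means of at least 100. The median of the list stood above 82.9% of all genes per kilobase, beside 82.6% for the 47 genes. The monomer-binding genes differed widely. The profilin *Pfn1* stood at 23082 per kilobase and *Pfn2* at 242, the cofilins *Cfl1* and *Cfl2* at 18191 and 1462, and thymosin beta-4 (*Tmsb4x*) at 723. *Rhoa*, the GTPase that drives stress fibres, stood at 6352 per kilobase, and its effector kinases *Rock1* and *Rock2* at 854 and 1335. The integrin chain *Itgb1* stood at 12868. *Cyr61*, *Ctgf* and *Ankrd1*, genes known to respond to SRF and to stretch, stood at 9669, 4928 and 3523 per kilobase. The 5 genes under a mean of 100 were *Acta1* (5.41), *Tmod1* (5.92), *Smtnl2* (0.542), *Fos* (45.0) and *Synm* (51.6). Of the 38 pathway genes with a promoter window, 1 (2.63%) had a CArG box, *Acta1*. That share was 1.81% of all genes with a window and 22.5% of the contractile and SRF genes with one.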

How the data were processed

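The authors mapped reads to mm10 with STAR and counted those on genes with HTSeq-count. The group comparison was the authors' own, made in DESeq2. The submitters' processing notes also name TopHat, Cufflinks and Cuffdiff. The signal used from the deposited table is the authors' mean, across the 6 libraries, of size-factor-normalised counts. The 5 columns of the authors' comparison (log2 fold change, its error, p-value, adjusted p-value and direction) were not used. Tests between groups were therefore not run, and no error between replicates was available. Libraries were grouped by genotype as labelled, but that grouping entered no value given here.

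Exon, transcript and coding lengths came from GENCODE M21 (GRCm38) by symbol, or by a RefSeq synonym for 1563 genes, and 16214 genes matched. Percentiles, family shares, CArG boxes, recovered reads and pairwise global alignments of coding sequences were computed with Python 3.11.15, pandas 2.3.3 and Biopython 1.88. The read recovery and box search were tested on simulated data, and the percentiles on values drawn from the real means. Every gene of the list was named, with pathway and marker genes from fixed lists. The genes and lists were chosen with earlier results of these data known. The smooth muscle marker list shares 9 of its genes with the 47.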

Additional observations from a re-analysis of the deposited data

How the results depend on the processing

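The median gene of the 47 stood above 82.6% of all genes. That share was 85.3% by the mean with no division by length, 76.3% by coding length, 84.9% by the longest transcript, and 80.3% or 80.5% among genes with means of at least 10 or 100. Coding length was taken from GENCODE, and it and the longest transcript were chosen after seeing the data. Allowing 1 mismatch in the outer CC and GG gave 15 of 40 genes (37.5%), beside 15.8% of all genes with a window. Exact boxes were found in 22.5% and 1.81% of these sets. With only the bases before the start, 9 of the 40 genes (22.5%) had a box, beside 1.62% of all genes with a window. The highest relative was the same in 11 of 13 families under the 3 lengths and with no division by length. In the other 2 it changed only with no division, where *Pdlim7* fell to 48.0% and *Mkl1* to 49.1% of their families. *Tpm4* took 43.7% to 54.2% of the tropomyosins under the 3 lengths and 39.6% with no division. The planned edgeR fit was not run, and neither were a DESeq2 fit, a low-count filter for tests, fits leaving out libraries or a change of pseudocount. The reason is that no values of libraries assigned to a group were used. Reads were recovered only for genes with low means, among them 5 of the 47, in libraries of unknown group. The planned comparison of protein sequences was not run either. No paired analysis was possible because the one column used is a mean over all libraries.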

Other observations

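Some marker genes of other tissues had clear levels. *Tnnt2*, cardiac troponin T, had a mean of 5787 normalised reads and 4582 per kilobase, above 96.4% of all genes, while the other 4 skeletal and heart muscle markers in the table (*Acta1*, *Myh3*, *Myl2* and *Pax7*) ran from 0.147 to 7.97. *Krt14*, a keratin of basal epithelium, had a mean of 170, beside 0.527 for *Krt5*.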
